A study of Homo sapiens with 9 samples.

Results

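The 40 guides described here target TRAF2, TRAF3, BIRC2 and BIRC3, with 10 guides per gene, out of 11170 guides against 1117 genes in a pooled sgRNA library. They were taken by the gene name that the count table gives to each guide. The 4 genes were selected on results of the same libraries, in which guides against TRAF3, BIRC2 and TRAF2 were scarcer at 1500 than at 0 µM and BIRC3 guides were not. All 3 comparisons of doses below therefore describe the guides and carry no test of them. U251 is an established human glioma cell line. Cells that stably carried the sgRNAs were kept for 72 hours at 0, 200 or 1500 µM temozolomide, a DNA-alkylating chemotherapy drug, and 3 libraries per dose, numbered 1 to 3, were made from their DNA. Sample titles name µM and the protocol names nM for these doses, and µM serves here only as a name of the groups. The sources used here do not give the nuclease, how long cells carried the guides, or whether the numbers mark separate cultures, so the spread between libraries may be technical. No library of the plasmid pool or of cells before treatment was analysed here.

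TRAF2, TRAF3 and the inhibitor of apoptosis proteins BIRC2 (c-IAP1) and BIRC3 (c-IAP2) form a ubiquitin ligase complex that restrains NF-κB signalling in resting cells. TRAF3 holds the kinase MAP3K14 (NIK), TRAF2 bridges TRAF3 to the c-IAP proteins, and these attach the ubiquitin chains that send the kinase to the proteasome. When the complex does not work, the kinase accumulates and the non-canonical NF-κB pathway starts. TRAF2 and the c-IAP proteins also ubiquitinate RIPK1 at the TNF receptor, where they favour survival signalling over cell death. BIRC2 and BIRC3 are close paralogs and neighbours on the chromosome, with 0 annotated genes between them in the RefSeq annotation of GRCh38.p14. The table names guides by number and holds no guide sequence, so whether a guide also matches the paralog was not tested.

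The values are guide abundances in DNA and not gene expression, and no level here speaks of how strongly U251 cells express a gene. A guide's abundance is given as CPM (counts-per-million scale), relative to a library total after TMM scaling, a trimmed mean of ratios that sets most guides of the libraries at equal levels. Totals lay between 1852340 and 2790563 counts per library, and 1 count was worth 0.353 to 0.609 CPM. A count of 0 allows up to 3 counts, or 1.06 to 1.83 CPM. A further guide, UBE2A.7, held 4.97 to 18.6% of the counts of the libraries at 1500 µM, and shares of the raw totals fall with it. Directions are on TMM sizes unless raw totals are named. Of the 40 guides, 39 had at least 10 counts in at least 3 libraries and entered the fits. TRAF2.3 did not, with at most 14 counts in any library and 0 counts in 7 of the 9.

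The replicate number separated the libraries more than the dose did. As log2(CPM + 5), libraries of the same number correlated at 0.85 to 0.91 across tested guides, and libraries of the same dose at 0.39 to 0.50. These correlations run across guides, which are not replicates, and carry no p. The replicate number held a median of 67.8% of the variation of a guide against the 4 genes over the 9 libraries and the dose 9.56%, against 75.3 and 6.34% for all 10337 tested guides. At 0 µM the highest of the 3 libraries exceeded the lowest by a median of 4.09-fold for the 39 guides, computed with 5 CPM added, and by 4.13-fold for all tested guides. TRAF3.1 was the extreme guide, with 17.7, 1555 and 189 CPM in replicates 1, 2 and 3 at 0 µM. For this reason each guide is given by replicate number, in the order 1, 2 and 3, and differences within a number are printed beside those of the fits.

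TRAF3 guides, against the adaptor that holds the NF-κB-inducing kinase, had lower sums at both treated doses than at 0 µM in every replicate number. The summed TRAF3 abundance was 1967, 3480.4 and 1013 CPM without drug, 1073, 2385 and 808 at 200 µM and 772, 1480.3 and 692 at 1500 µM. The sum was lower at each dose step in every number, on TMM sizes and on raw totals, while the groups of libraries overlapped, with replicate 2 high throughout. Of the 4 genes, TRAF3 alone had a sum that was lower at each step in all 3 numbers, against 3.67% of the 1117 genes. The mean was 2153 ± 1244 CPM without drug, 1422 ± 844 at 200 µM and 982 ± 434 at 1500 µM (SD, n = 3).

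At 1500 against 0 µM the 10 TRAF3 guides had a median log2 fold change of -1.002 in the fit of the 6 libraries (SD over guides 0.61), and -0.85 with the replicate number as a block. The median over the 1117 genes was -0.077, and TRAF3 was the 5th lowest gene, or the 11th lowest with the block. In this fit 9 of 10 guides were below 0, where 56.1% of all tested guides were. The summed counts had a log2 fold change of -0.995 ± 0.47 (SE), -0.92 ± 0.18 with the block and -0.54 without replicate 2 at 0 µM. The median was -0.57 without replicate 3 at 1500 µM. Averaged over all guides, the log2 difference within a number was -0.53, -0.84 and -0.57, or -0.65 ± 0.17 (mean ± SD, n = 3 numbers). All 3 numbers were lower, and the spread between them was smaller than their mean.

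TRAF3.10 was the most regular of the TRAF3 guides. It had 554, 268 and 404 CPM without drug, 254, 232 and 251 at 200 µM and 125, 114 and 190.2 at 1500 µM, from 909, 558 and 821 raw counts without drug, 575, 448 and 713 at 200 µM and 348, 240 and 453 at 1500 µM. The 3 groups of libraries did not overlap, although those at 200 and 0 µM did on raw totals, and every number was lower at each step. The log2 fold change of 1500 over 0 µM was -1.53 ± 0.72 (SE), or -1.50 ± 0.34 with the block.

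TRAF3.5 showed the same order at a lower abundance, with 251, 108 and 106 CPM without drug, 166, 76.1 and 91.7 at 200 µM and 72.1, 46.8 and 68.9 at 1500 µM. Its libraries at 1500 µM lay below those of both other doses, although those at 1500 and 200 µM overlapped on raw totals, and those at 0 and 200 µM overlapped. TRAF3.6 was lower in all 3 numbers at 1500 than at 0 µM by less, with 84.7, 44.2 and 53.2 CPM without drug, 61.4, 23.8 and 54.7 at 200 µM and 71.1, 22.9 and 41.6 at 1500 µM, and its groups overlapped. These 3 were the TRAF3 guides lower in all 3 numbers at 1500 against 0 µM.

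The most abundant TRAF3 guides moved in some numbers only. TRAF3.1 had 17.7, 1555 and 189 CPM without drug, 47.2, 1134 and 134 at 200 µM and 25.8, 556 and 113 at 1500 µM. It was lower in replicates 2 and 3 at 1500 than at 0 µM and higher in replicate 1, where it was scarce. TRAF3.7 had 725, 648 and 81.2 CPM without drug, 169, 389 and 130.5 at 200 µM and 142, 343 and 109.6 at 1500 µM. It was lower in replicates 1 and 2 and higher in replicate 3. TRAF3.1, TRAF3.7 and TRAF3.10 held 30.3, 24.4 and 22.6% of the difference in the mean TRAF3 sum between 1500 and 0 µM. Of the other guides, TRAF3.9 was the 1 with a log2 fold change above 0, at 0.23 ± 0.81 (SE) and -0.10 with the block, and TRAF3.4 turned to 0.11 with the block from -0.49 without it. TRAF3.2, TRAF3.3 and TRAF3.8 had log2 fold changes of -0.74, -1.26 and -0.16, or -1.03, -0.86 and -0.84 with the block. Each was lower in 2 of 3 numbers, TRAF3.8 in 1 on raw totals.

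The lower dose gave TRAF3 smaller differences. At 200 against 0 µM its median log2 fold change was -0.50, or -0.42 with the block, and 8 of 10 guides were below 0, or 7 with the block, where 57.5% of all tested guides were. The within-number differences were -0.24, -0.45 and -0.33, or -0.34 ± 0.11 (mean ± SD, n = 3 numbers). At 1500 against 200 µM the median was -0.52, or -0.59 with the block, with 8 of 10 guides below 0 against 49.2% of all tested guides. The within-number differences were -0.29, -0.39 and -0.24. Both steps were thus lower in all 3 numbers, but on raw totals the differences at 200 against 0 µM were 0.036, -0.35 and -0.28, above 0 in replicate 1. The difference between the steps was not tested, since they share the libraries at 200 µM. The summed TRAF3 value at the lower step had a log2 fold change of -0.50 ± 0.51 (SE), or -0.48 ± 0.15 with the block. Without replicate 2 at 0 µM it was -0.0026, in a fit with no block that kept replicate 2 at 200 µM. The log2 differences of the sums within numbers were -0.87, -0.55 and -0.33. For 1500 against 200 µM the summed value was -0.51 ± 0.42 (SE), or -0.45 ± 0.11 with the block. Without replicate 2 at 200 µM it was -0.025, again with no block and with the partner kept, and the median was -0.13. Here the sums differed within numbers by -0.47, -0.69 and -0.22.

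TRAF2 guides, against the adaptor that bridges TRAF3 and the c-IAP proteins, had lower sums at both treated doses than at 0 µM in every number, by most in replicate 1. The summed TRAF2 abundance was 1159, 517 and 485 CPM without drug, 811, 406 and 386 at 200 µM and 634, 455 and 425 at 1500 µM. Replicate 1 at 0 µM stood above the other 8 libraries, and replicates 2 and 3 were slightly higher at 1500 than at 200 µM, replicate 2 slightly lower on raw totals. The mean was 721 ± 380.2 CPM without drug, 534 ± 239.6 at 200 µM and 505 ± 113 at 1500 µM (SD, n = 3), with overlapping groups.

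At 1500 against 0 µM the 9 tested TRAF2 guides had a median log2 fold change of -0.78 (SD over guides 0.40), the 8th lowest of 1117 genes. With the block it was -0.35, the 117th lowest. Without replicate 1 at 0 µM, but with replicate 1 at 1500 µM kept, the median without the block was -0.035. That fit had replicate 1 at 1500 µM only, so it cannot separate the dose from the replicate number. The summed counts had a log2 fold change of -0.38 ± 0.41 (SE), and 0.12 without replicate 1 at 0 µM. Within numbers the differences were -0.91, -0.065 and -0.14, or -0.37 ± 0.47 (mean ± SD, n = 3 numbers), a spread larger than the mean. With replicate 1 left out at both doses, the mean within-number difference was -0.10.

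TRAF2.6 was the most abundant TRAF2 guide and held 43.7% of the difference in the mean sum. It had 411, 139.7 and 129 CPM without drug, 167, 104 and 109.7 at 200 µM and 145, 111 and 142 at 1500 µM, and the 0 µM library of replicate 1 alone stood apart. TRAF2.1 had 244, 54.7 and 33.5 CPM without drug, 279, 83.4 and 37.4 at 200 µM and 234, 56.8 and 55.8 at 1500 µM. Its level followed the replicate number more than the dose. It was higher at 200 than at 0 µM in all 3 numbers, as were 10.1% of all tested guides.

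TRAF2.5, TRAF2.9 and TRAF2.10 were lower in all 3 numbers at 1500 than at 0 µM, with at most 71.1 CPM of TRAF2.9 or TRAF2.10 in any library. TRAF2.5 had 70.7, 166 and 45.3 CPM without drug, 37.5, 90.6 and 46.2 at 200 µM and 12.2, 139 and 16.4 at 1500 µM, high in replicate 2 throughout. TRAF2.9 had 5.02, 10.97 and 10.5 CPM at 1500 µM against 18.3, 13.4 and 15.8 CPM at 0 µM, which did not overlap, but its libraries at 200 µM spread over both, at 71.1, 3.62 and 25.0 CPM. TRAF2.10 had 12.2, 27.8 and 22.6 CPM without drug, 21.2, 7.77 and 13.4 at 200 µM and 0, 18.6 and 17.6 at 1500 µM, and its largest difference came from a count of 0 in replicate 1. TRAF2.2, TRAF2.7 and TRAF2.8 had log2 fold changes of -0.45, -0.84 and -0.59, and TRAF2.4 had 0.22. With the block these were -0.18, -0.35, -0.33 and 0.41.

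The TRAF2 medians of the other comparisons also moved when single libraries were left out. At 200 against 0 µM the median was -0.56, or -0.61 with the block. Here 6 of 9 guides were below 0, where 57.5% of all tested guides were, or 5 with the block. Without replicate 1 at 0 µM the median was 0.52, in a fit with no block that kept replicate 1 at 200 µM. The log2 differences of the sums within numbers were -0.52, -0.35 and -0.33. For 1500 against 200 µM the median was -0.062, or -0.12 with the block, with 6 of 9 guides below 0 beside 49.2% of all tested guides. It was -0.46 without replicate 1 at 1500 µM and 0.20 without replicate 1 at 200 µM. The within-number differences were -0.65, -0.051 and 0.0033.

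BIRC2 guides, against c-IAP1, which carries the ligase activity of the complex with BIRC3, had their lowest sum at 1500 µM in every replicate number, by more in replicates 1 and 2 than in replicate 3. The summed BIRC2 abundance was 2432, 2987 and 1325 CPM without drug, 2038, 2592 and 1429.8 at 200 µM and 1378, 1766 and 1204 at 1500 µM. Replicate 3 was the lowest number at each dose and differed least between doses. The mean was 2248 ± 846 CPM without drug, 2019.9 ± 581 at 200 µM and 1449 ± 288 at 1500 µM (SD, n = 3), and the groups overlapped.

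The median log2 fold change of the 10 BIRC2 guides at 1500 against 0 µM was -0.60 (SD over guides 0.40), and -0.33 with the block. Of its guides, 9 of 10 were below 0, where 56.1% of all tested guides were. BIRC2 was the 20th lowest of 1117 genes, and the 132nd lowest with the block. Its summed counts had a log2 fold change of -0.49 ± 0.36 (SE), -0.45 ± 0.17 with the block and -0.30 without replicate 2 at 0 µM. Within numbers the differences were -0.49, -0.46 and -0.053, so that replicate 3 stood close to 0.

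BIRC2.1 and BIRC2.8 were the BIRC2 guides whose libraries at 1500 µM all lay below those at 0 µM. BIRC2.1 had 275, 318 and 233 CPM without drug, 146, 289 and 187 at 200 µM and 142, 133 and 149 at 1500 µM, and it was lower at each step in every number. The log2 fold change of 1500 over 0 µM was -0.98 ± 0.62 (SE), or -0.98 ± 0.30 with the block. BIRC2.8 had 456, 489 and 380.1 CPM without drug, 491, 325 and 593 at 200 µM and 224, 240.4 and 316 at 1500 µM. Its libraries at 1500 µM lay below those of both other doses, although on raw totals they overlapped those at 200 µM. At 200 µM replicates 1 and 3 were above their 0 µM libraries. Here the log2 fold change of 1500 over 0 µM was -0.78 ± 0.71 (SE). Both guides were abundant in all 9 libraries, with at least 133 CPM.

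BIRC2.5, the most abundant BIRC2 guide, had 712, 1468 and 97.5 CPM without drug, 645, 1169.8 and 105 at 200 µM and 495, 838 and 118 at 1500 µM. It was lower at each step in replicates 1 and 2 and slightly higher at each step in replicate 3, although on raw totals replicate 1 was higher at 200 than at 0 µM. It held 34.5% of the difference in the mean BIRC2 sum between 1500 and 0 µM, and 49.1% of the BIRC2 counts of replicate 2 at 0 µM. BIRC2.6 was lower in all 3 numbers, with 523, 52.8 and 70.9 CPM without drug, 273, 38.3 and 22.9 at 200 µM and 196, 48.7 and 66.3 at 1500 µM, and nearly all of the difference between 1500 and 0 µM lay in replicate 1. The other 6 guides had log2 fold changes of -1.02 for BIRC2.3 to 0.041 for BIRC2.7, which had -0.40 and -0.014 with the block.

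BIRC2 values were near 0 at the lower dose, and whether the dose steps differ was not tested. For 200 against 0 µM the median log2 fold change was -0.066, with 5 of 10 guides below 0, where 57.5% of all tested guides were. The sign of this median changed with library totals in place of TMM (0.11), so no direction is given. At 1500 against 200 µM the median was -0.37, or -0.28 with the block. All 10 guides were below 0, where 49.2% of all tested guides were, or 8 of 10 with the block. The summed counts had -0.46 ± 0.26 (SE), and -0.45 ± 0.091 with the block. Within numbers the differences were -0.44, -0.45 and 0.014, near 0 in replicate 3.

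BIRC3 guides, against the paralog c-IAP2, had mean sums at the treated doses that differed from the 0 µM mean by less than its SD. The summed BIRC3 abundance was 818, 887 and 659.7 CPM without drug, 1020.0, 865 and 730.4 at 200 µM and 1058, 806 and 708 at 1500 µM. Replicates 1 and 3 were higher at both treated doses than at 0 µM and replicate 2 was lower, although higher at 200 than at 0 µM on raw totals, and the groups overlapped. The mean was 788 ± 117 CPM without drug, 872 ± 145 at 200 µM and 857 ± 180.3 at 1500 µM (SD, n = 3).

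The 10 BIRC3 guides had a median log2 fold change of 0.24 at 1500 against 0 µM (SD over guides 0.28), and 0.38 with the block. Of these, 8 of 10 were above 0 and 2 below, where 56.1% of all tested guides were below. BIRC3 was the 111th highest of 1117 genes, or the 80th with the block. For 200 against 0 µM the median was 0.29, or 0.43 with the block, and without replicate 2 at 0 µM it was 0.029. Here 7 of 10 guides were above 0, or 8 with the block, while 57.5% of all tested guides were below 0. Within numbers the BIRC3 differences were 0.47, 0.034 and 0.11 at 1500 against 0 µM and 0.49, 0.28 and 0.28 at 200 against 0 µM. At 1500 against 200 µM the median was 0.0028, with 5 guides on either side of 0, where 49.2% of all tested guides were below. The sign of this median changed with the block (-0.034) and with the scaling (-0.16 with library totals).

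BIRC3.9 was the BIRC3 guide whose libraries at 1500 µM all lay above those at 0 µM, with 79.2, 80.2 and 67.0 CPM without drug, 92.3, 68.4 and 53.6 at 200 µM and 117, 114 and 86.5 at 1500 µM. BIRC3.6 held that place at 200 µM, with 98.5, 128 and 102 CPM at 200 µM against 63.4, 98.4 and 73.4 CPM at 0 µM. The nearest of these libraries differed by less than 1 count is worth, and at 1500 µM its libraries spread over 141, 94.5 and 45.3 CPM. Both guides were chosen for print after their values were seen. BIRC3.3, the most abundant BIRC3 guide, was lower at each step in replicate 2, with 388, 265 and 22.6 CPM without drug, 433, 179 and 62.8 at 200 µM and 393, 120.2 and 16.4 at 1500 µM. BIRC3.5 had 130.4, 123 and 9.35 CPM without drug, 161, 101 and 88.5 at 200 µM and 134, 152 and 60.9 at 1500 µM, and replicate 3 at 0 µM was its single low library. BIRC3.4 was the scarcest BIRC3 guide, with counts of 0 in all 3 libraries of replicate 2. BIRC3.2, BIRC3.5, BIRC3.9 and BIRC3.10 were higher in all 3 numbers at 1500 than at 0 µM, BIRC3.10 in 2 of 3 on raw totals, and BIRC3.1, BIRC3.7 and BIRC3.8 differed in sign between numbers.

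Side by side, the within-number differences at 1500 against 0 µM averaged -0.65 ± 0.17 for TRAF3, -0.37 ± 0.47 for TRAF2, -0.34 ± 0.25 for BIRC2 and 0.20 ± 0.24 for BIRC3 (mean ± SD, n = 3 numbers). TRAF3, TRAF2 and BIRC2 were below 0 in all 3 numbers, as were 12.4% of the 1117 genes, and BIRC3 was above 0 in all 3, as were 15.4%. In replicate 3 the largest BIRC3 difference was 2.20 for BIRC3.5, and 4 of the 10 BIRC3 guides were lower. On raw totals the BIRC3 differences were 0.62, -0.076 and 0.14, below 0 in replicate 2. The other 3 genes were still below 0 in all 3 numbers on raw totals, as were 10.2% of genes. At 200 against 0 µM TRAF3, TRAF2 and BIRC2 were below 0 in all 3 numbers (17.7% of genes) and BIRC3 above (10.0% of genes). BIRC2 had -0.053, -0.010 and -0.067, close to the medians over all genes of -0.050, 0.0044 and -0.071. In replicate 3, 6 of the 10 BIRC3 guides were lower, while BIRC3.5 had 2.70 and BIRC3.3 had 1.29. On raw totals none of TRAF3, TRAF2 and BIRC2 was below 0 in all 3 numbers, where 5.82% of genes were. TRAF2 then had -0.0028, 0.064 and -0.084 and BIRC2 had 0.23, 0.10 and -0.00065. BIRC3 was above 0 in all 3 numbers on raw totals too, as were 22.7% of genes. For 1500 against 200 µM TRAF3 and BIRC3 were below 0 in all 3 numbers, as were 7.97% of genes, and on raw totals all 4 genes were, as were 17.6%. The first 2 comparisons share the libraries at 0 µM, so their values are not independent of each other.

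No guide of the library passed edgeR's quasi-likelihood test at an adjusted p under 0.05 in any of the 3 comparisons (0% of 10337 guides in each), and none of the 39 did. At an unadjusted p under 0.05 in edgeR there were 21, 14 and 21 guides at 1500 against 0, 200 against 0 and 1500 against 200 µM, and DESeq2 called 0 with 61, 40 and 33. These fits had no block, so differences between replicate numbers stayed in their spread. With the block edgeR called 0, with 270, 231 and 202 at an unadjusted p under 0.05. DESeq2 with the block, chosen after seeing the data, called 6, 6 and 43. At 1500 against 0 µM 9 of the 39 guides were lower in all 3 numbers, against 12.6% of all tested guides, and 4 were higher in all 3, against 12.2%. The libraries of 5 guides did not overlap and were lower at 1500 µM, TRAF2.9, TRAF3.5, TRAF3.10, BIRC2.1 and BIRC2.8, or 12.8% of the 39 against 1.27% of all tested guides. BIRC3.9 alone was higher without overlap, where 1.41% of all tested guides were.

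At 200 against 0 µM 7 of the 39 guides were lower in all 3 numbers and 6 were higher, against 13.9 and 10.1% of all tested guides. Without overlap TRAF3.10 was lower and BIRC3.6 was higher, against 1.12 and 1.29%. At 1500 against 200 µM 10 were lower in all 3 numbers and 3 were higher, against 11.5 and 13.3%, and 6 of the 10 were TRAF3 guides. TRAF3.5, TRAF3.10 and BIRC2.8 were lower without overlap, against 1.17%. Over the 3 doses TRAF3.5, TRAF3.10 and BIRC2.1 were lower at each step in every number, as were 0.697% of all tested guides. On raw totals the guides higher in all 3 numbers were 3, 7 and 2 of the 39 at 1500 against 0, 200 against 0 and 1500 against 200 µM, and those lower were 9, 7 and 10. Of all tested guides 12.2, 15.5 and 8.52% were then higher and 11.6, 8.46 and 16.5% lower. Without overlap TRAF3.10 was then not lower at 200 against 0 µM, where 0.532% of all tested guides were. It alone was lower at 1500 against 200 µM, against 1.58%. Since the genes were selected on these comparisons, none of these shares is a test.

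Summed abundance put BIRC2 and TRAF3 among the most abundant targets without drug. At 0 µM BIRC2 was the 9th and TRAF3 the 12th of 1117 genes, BIRC3 the 691st and TRAF2 the 759th. The means of BIRC2 and TRAF3 differed by less than their SDs, and so did those of BIRC3 and TRAF2, while 909 CPM was the median gene. At 1500 µM the ranks were 41st for BIRC2, 345th for TRAF3, 501st for BIRC3 and 901st for TRAF2. Of the 20 genes with the highest mean sum at 0 µM, 17 had a summed log2 fold change below 0 at 1500 against 0 µM, with a median of -0.41, against 617 of 1117 genes and a median of -0.026. Ranked at 200 µM instead, 14 of the 20 highest genes were below 0, with a median of -0.10, and BIRC2 was among them. The part of this general pattern in the TRAF3 and BIRC2 values was not tested.

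None of the guides against other genes of the pathway passed edgeR's test in any comparison. The 5 other TRAF genes, mostly adaptors of TNF and interleukin receptors, had a median of gene medians of -0.060 at 1500 against 0 µM, from -0.20 for TRAF6 to -0.0081 for TRAF4, beside -0.077 for all genes. With the block TRAF6 had -0.48. The 5 other inhibitor of apoptosis genes had -0.064, from -0.51 for BIRC8 to 0.094 for BIRC6, a very large ubiquitin-conjugating enzyme. With the block the list median was -0.11, BIRC8 had -0.21 and BIRC6 turned to -0.11. TRAF4 had -0.057.

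Of 34 listed NF-κB regulators and linear ubiquitin genes, 18 were in the table. They had a median of -0.14 at 1500 against 0 µM, and 15 of 18 gene medians were below 0, as were 65.0% of all genes. TNIP1, a ubiquitin-binding partner of the NF-κB inhibitor TNFAIP3, was lowest at -0.55 (-0.65 with the block), and PELI1, a RING-type ubiquitin ligase of innate immune signalling, was highest at 0.24 (0.13 with the block). Their median was -0.041 at 200 against 0 µM, from RNF31 at -0.33 to PELI2 at 0.42, or a median of -0.0051 and PELI2 at 0.11 with the block, beside -0.093 for all genes. For 1500 against 200 µM it was -0.11, from PELI2 at -0.36 to PELI3 at 0.079 (0.018 with the block), with 15 of 18 below 0 beside 47.2% of all genes. RNF31 is the catalytic subunit of the linear ubiquitin ligase. No gene of the 3 lists had a median as low as the -1.002 of TRAF3 at 1500 against 0 µM. TRAF3 was selected on this comparison, so its place below them is no test.

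In the other comparisons the 5 TRAF genes had medians of 0.0027 at 200 against 0 µM, from TRAF6 at -0.31 to TRAF7 at 0.27, and -0.10 at 1500 against 200 µM, from TRAF1 at -0.32 to TRAF4 at 0.16. The 5 inhibitor of apoptosis genes had -0.024 at 200 against 0 µM, from BIRC8 at -0.16 to BIRC5 at 0.47. At 1500 against 200 µM they had -0.17, from BIRC5 at -0.61 to BIRC8 at 0.087. With the block the inhibitor of apoptosis median at 200 against 0 µM was -0.29 and BIRC8 had -0.41 there, TRAF6 had -0.54, and at 1500 against 200 µM TRAF1 had -0.10, TRAF4 0.066 and BIRC5 -0.35. The BIRC5 and TRAF7 medians at 200 against 0 µM turned to -0.42 and -0.24 with the block. Other list medians changed sign with it, to -0.20 for the TRAF genes at 200 against 0 µM, and at 1500 against 200 µM to 0.066 for the TRAF genes and 0.064 for the inhibitor of apoptosis genes, so no direction is given for them.

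The genes whose pattern was most like each of the 4 genes were found by Pearson's r over the 9 libraries, on the mean log2(CPM + 5) of a gene's guides centred within each replicate number. For TRAF3 they were MAP3K1 (r = 0.95), MEX3A (r = 0.91) and TADA2B (r = 0.91). For BIRC2 they were MKLN1 (r = 0.90), CCDC101 (r = 0.88) and TRIM54 (r = 0.88), and for TRAF2 UBE2J1 (r = 0.94) and FBXO38 (r = 0.92). A high r did not mean a like median. At 1500 against 0 µM the guide medians were 0.045 for UBE2J1 and -0.32 for FBXO38, beside -0.78 for TRAF2. BIRC3 was most like CAND1 (r = 0.95), VPS41 (r = 0.90) and CDC20 (r = 0.90). These values describe 9 libraries that the genes share, chosen as the highest over all other genes, and carry no p.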

How the data were processed

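Raw counts of each sgRNA were deposited by the authors in 1 table, with 9 libraries as columns, each matched to a sample by the dose and number in its title. Per the submitters' processing notes, the tools were cutadapt 1.18 and MAGeCK 0.5.8 and the build hg19. The sources used here state neither mismatches allowed nor filters. Counts were used unchanged, with TMM library sizes over guides that reached 10 counts in 3 or more libraries. Each pair of doses was fitted on its 6 libraries over all 10337 such guides, and on counts summed per gene, with edgeR 4.0.16's quasi-likelihood test (robust, no block, R 4.3.3) and Benjamini-Hochberg adjustment at 0.05. Each SE divides the size of the log2 fold change by the root of its F statistic. Within-number differences are of log2(CPM + 5). The fits were tested on simulated data, which for the fit without the block held no differences between replicate numbers. Floors cover counting error only, since no molecular identifiers were stated, while each SE also takes in the spread between libraries in its fit.

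Same-numbered libraries deviated together from their dose means (r of 0.74 to 0.83 over 9 pairs across tested guides, above the rule of 0.1 in each pair), which by this rule pairs the libraries by number. This comes from the data, since the labels give only the number. The fit with the block was an alternative and is given beside many of the values. DESeq2 1.42.0, other filters, scalings and pseudocounts, and leaving out libraries were the others. The 4 genes, the lists and the tests were chosen with earlier results of these data known. Guides printed in all libraries were the 2 most abundant per gene and up to 3 lower in every number at 1500 against 0 µM, and BIRC3.6 and BIRC3.9 were added after their values were seen. Other genes were the extremes of each list and the 3 most alike genes of each of the 4, of which 1 is not reported here.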

Additional observations from a re-analysis of the deposited data

How the results depend on the processing

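The 12 medians, 12 summed values and 12 within-number values were recomputed under 360 alternatives in all, of which 326 moved the value by less than 1 SD between libraries or numbers and 30 changed its sign. None of the TRAF3 medians, sums and within-number means changed sign in any alternative run. The cause of the moves was not tested. With the replicate block, medians at 1500 against 0 µM moved to -0.35 for TRAF2, -0.33 for BIRC2 and 0.38 for BIRC3, and BIRC3 had 0.43 at 200 against 0 µM. With the block and DESeq2, chosen after seeing the data, TRAF2 had -0.35 at 1500 against 0 µM and BIRC3 0.41 at 200 against 0 µM, and 6, 6 and 43 guides of the library passed at 1500 against 0, 200 against 0 and 1500 against 200 µM. All other settings called 0 guides, with 270, 231 and 202 at an unadjusted p under 0.05 in edgeR with the block and 61, 40 and 33 in DESeq2.

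Library totals without UBE2A.7 gave BIRC3 medians of 0.40 and 0.38 at 1500 and 200 against 0 µM, and plain totals -0.16 at 1500 against 200 µM. With CPM on totals the within-number values at 200 against 0 µM were -0.0077 for TRAF2, -0.20 for TRAF3, 0.11 for BIRC2 and 0.49 for BIRC3, and -0.43 for TRAF3 at 1500 against 200 µM. As the median over guides they were -0.27, -0.080 and 0.10 for TRAF2, BIRC2 and BIRC3 at 200 against 0 µM, and 0.16 and -0.0098 for TRAF2 and BIRC3 at 1500 against 200 µM.

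Leaving out 1 library at a time, medians at 1500 against 0 µM ranged over -0.85 to -0.035 for TRAF2, -1.35 to -0.57 for TRAF3, -0.92 to -0.41 for BIRC2 and 0.075 to 0.46 for BIRC3. At 200 against 0 µM they ranged over -0.66 to 0.52, -0.71 to -0.30, -0.43 to 0.0066 and 0.029 to 0.37 in that order, and at 1500 against 200 µM over -0.46 to 0.20, -0.76 to -0.13, -0.64 to -0.36 and -0.13 to 0.15. The summed values ranged, in the same order of genes, over -0.61 to 0.12, -1.35 to -0.54, -0.72 to -0.30 and 0.066 to 0.34 at 1500 against 0 µM, -0.74 to 0.20, -0.99 to -0.0026, -0.27 to 0.19 and 0.13 to 0.35 at 200 against 0 µM and -0.29 to 0.37, -0.86 to -0.025, -0.62 to -0.33 and -0.20 to 0.13 at 1500 against 200 µM. The fits with a library left out had no block and kept the other library of its number, so they mix the dose with the replicate number. With a number left out at both doses, within-number means at 1500 against 0 µM ranged over -0.52 to -0.10 for TRAF2 and -0.71 to -0.55 for TRAF3. They ranged over -0.48 to -0.26 for BIRC2 and 0.069 to 0.29 for BIRC3. Depth limits the guides under 10 counts, such as TRAF2.3.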
